A study of Sus scrofa with 12 samples.

Results

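The dystrophin glycoprotein complex links the actin cytoskeleton of a muscle fiber, across its membrane, to laminin in the surrounding matrix. Dystrophin binds actin inside the fiber, dystroglycan spans the membrane and holds laminin, and the sarcoglycans with sarcospan form a side complex that keeps dystroglycan in place. Loss of dystrophin or of a sarcoglycan causes muscular dystrophy, and utrophin, a paralog of dystrophin, can fill part of its role. Open chromatin at 8 genes of this complex was compared between 2 pig breeds: DMD (dystrophin), UTRN (utrophin), DTNA (dystrobrevin alpha), DAG1 (dystroglycan), SGCA, SGCB and SGCD (sarcoglycans alpha, beta and delta) and SSPN (sarcospan). A region belonged to a gene when its midpoint lay in the gene body or within 10 kb of it on Sscrofa11.1. This gave 627 of the 140081 open regions of the study, or 871 of its 217213 listed intervals.

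ATAC-seq reads pile up where a transposase can reach the DNA. The libraries came from the longissimus dorsi muscle of 3 Luchuan and 3 Duroc boars, Luchuan being a small, fat Chinese breed and Duroc a lean one. All were 180 days old, were kept under the same feeding conditions and were fasted overnight, and neither breed had a treatment or an engineered allele. The table gives 1 read count per region and breed, so the values of single boars were not seen, no standard deviation between animals exists and no test between breeds was possible. The regions held 20760289 Duroc and 13746435 Luchuan reads. Luchuan counts were multiplied by 1.5, so that over all regions the median ratio between the breeds is 0 on the log2 scale. Each ratio below is on this scale, and its 95% Clopper-Pearson interval covers counting error alone. Reads were not marked by molecule, so these intervals are narrower than the error of the measurement. Scaling by the clean reads of each breed instead lowers every ratio by 0.22, and no scaling lowers it by 0.58, so a ratio between 0 and 0.22 falls below 0 under either of these.

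The sample was checked against muscle markers. All 10 fiber genes looked at (ACTA1, CKM, MYH1, MYH2, MYH7, TTN, NEB, RYR1, MYLPF and TNNT3) had open regions, with 52.0 to 224 Duroc reads and 43.7 to 188 scaled Luchuan reads per kb of the gene and its flanks. Per kb, the medians in Duroc and Luchuan were 147 and 110 for fiber genes, 66.3 and 69.3 for 2 satellite cell genes, 4.55 and 4.55 for 3 adipocyte genes and 0.922 and 1.56 for 3 endothelial genes. They were 0.635 and 0.920 for 3 leukocyte genes, 7.01 and 7.09 for 3 fibroblast genes, 11.6 and 17.9 for 2 smooth muscle genes and 8.69 and 15.8 for 5 genes of other tissues. The 2 Schwann cell genes with a region had medians of 23.1 and 19.2. For 9 of the 10 fiber genes the log2 ratio of summed reads was below 0 with its counting interval, and over the 10 it ran from -0.44 at CKM to 0.06 at TTN with a median of -0.32. In whole muscle, fewer nuclei of one type and less accessible chromatin per nucleus cannot be told apart.

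DMD had the lowest ratio of the 8 genes and SSPN the highest. Dystrophin's gene held 20102 Duroc reads and 10397 Luchuan reads, a log2 ratio of -0.37 (-0.40 to -0.33), which is 1.29-fold more in Duroc after scaling. For SSPN they were 2680 and 2011 reads, a log2 ratio of 0.17 (0.09 to 0.25), which turned to -0.05 when the counts were scaled by the clean reads of each breed. The other genes lay between -0.10 and 0.01, the largest of these differences being 1.07-fold. DTNA stood at 0.01 (-0.03 to 0.06), or at -0.20 with clean reads, with 9087 Duroc and 6120 Luchuan reads, and UTRN at -0.02 (-0.08 to 0.03) with 6792 and 4457. SGCB stood at -0.09 (-0.24 to 0.07) with 885 and 556 reads, and DAG1 at -0.09 (-0.15 to -0.03) with 6349 and 3979. SGCA stood at -0.10 (-0.21 to 0.02) with 1729 and 1079 reads, and SGCD at -0.10 (-0.14 to -0.05) with 9059 and 5651. Neighbours among these genes in the order of ratios had overlapping counting intervals, while DMD and SSPN stood clear of their neighbours. An interval clear of 0 was common in the table. It lay below 0 for 22.3% of the 16986 protein-coding genes with a region and above 0 for 25.8%.

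**Figure D1:**
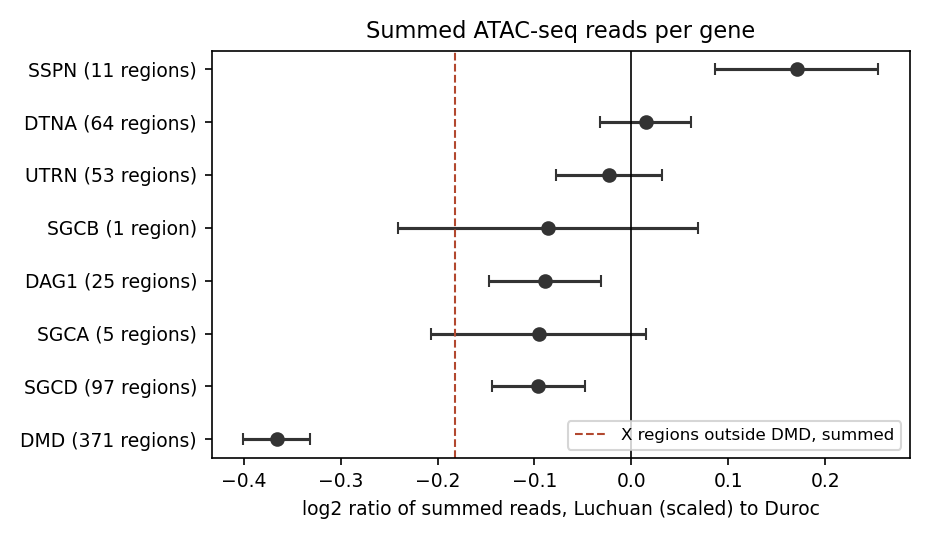
Log2 ratio of summed ATAC-seq reads, scaled Luchuan to Duroc (horizontal axis), for each of the 8 genes, with 95% counting intervals as bars and the number of regions in brackets. DMD at -0.37 lies below the summed regions of the rest of the X chromosome (dashed line, -0.18) and SSPN lies at 0.17, or -0.05 with scaling by clean reads.

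Of the 627 regions, 587 had at least 30 reads in both breeds together. Of these, 43 were at least 2-fold higher in Duroc, 12 at least 2-fold higher in Luchuan and 532 neither. Over all regions of the table with 30 reads, 5.44% were higher in Duroc and 4.57% in Luchuan by the same rule. The members' shares were 7.33% and 2.04%, and 34 of the 43 lay in DMD. All 34 had their peak called in Duroc alone, so they entered the table through the breed in which they were higher. Over the other seven genes 9 of 246 regions were higher in Duroc, or 3.66%, and 10 in Luchuan, or 4.07%, against 5.23% and 4.6% of all autosomal regions. DAG1, SGCA and SGCB had no region past 2-fold. The split of 43 to 12 became 79 to 6 with scaling by clean reads and 200 to 1 without any scaling.

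**Figure D2:**
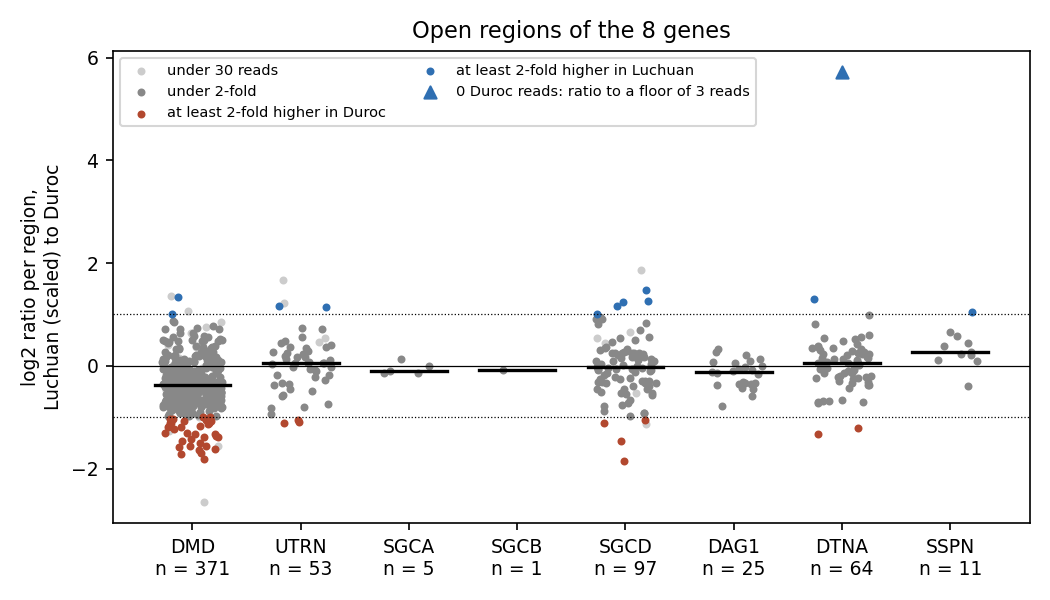
Log2 ratio of scaled Luchuan to Duroc reads of each open region (vertical axis) in the 8 genes, with the number of regions under each name, the median as a black bar and 2-fold as dotted lines. The DMD median is -0.37, the SSPN median 0.27, and the triangle at DTNA at 5.71 is a region without Duroc reads, set against a floor of 3 reads.

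DMD encodes dystrophin, the rod that ties actin to dystroglycan, and is the only member on the X chromosome, from 27028223 to 29650728. Among all protein-coding genes it had the most open regions, 371, of which 368 lay in the gene body. Along the 35 stretches of X of the length of DMD with its flanks that held at least 20 regions, its own 371 regions compare with 23 to 170 in the others. These regions were mostly small and weak. Their median length was 193 bases, and their median read counts were 37 in Duroc and 20 in Luchuan, against 76 and 40 for the rest of X. Duroc alone had the peak call for 221 regions, or 59.6%, against 35.8% on the rest of X. Luchuan alone had it for 60, or 16.2%, against 9.69%. The 90 common regions were 24.3%, against 54.5%, so calls in a single breed were more frequent in DMD for both breeds. In the share called in Duroc alone DMD was number 2 of the 35 stretches, and the highest was 61.4%. Duroc also had more reads in all, and the part of read depth in these calls was not tested.

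The X chromosome as a whole was lower in Luchuan. The 2952 X regions outside DMD had a summed log2 ratio of -0.18 and a median of -0.20, and the medians of the autosomes ran from -0.09 to 0.09. DMD with a median of -0.37 lay below both, and 76.8% of its regions had a ratio below 0, against 66.5% on the rest of X. More of its regions had a peak call in Duroc alone, 59.6% against 35.8% on the rest of X. Such a call selects regions with more Duroc reads, and its part in these values was not tested. No ratio was computed for the common regions alone. Centred on the median of all X regions, those of DMD included, its summed ratio was -0.15. Among the 275 X genes with at least 1000 reads it was number 40 from the lowest, and 4 of the other 34 stretches of X were lower. The 9 fiber genes that were lower in Luchuan are autosomal, and their part in the DMD ratio was not tested.

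Most DMD regions differed by less than 2-fold. Only 9.97% of its 341 regions with 30 reads were at least 2-fold higher in Duroc. This is above the 5.44% of all regions but under the 13.3% on the rest of X. Each of these DMD regions had its peak called in Duroc alone, and the part of that selection in the share was not tested. In Luchuan, 2 regions were higher, or 0.587%, against 2.5% on the rest of X. Centring on the median of all X regions, those of DMD included, left 19 DMD regions higher in Duroc, or 5.57%, and 4 higher in Luchuan, or 1.17%. On the rest of X these shares were 9.50% and 4.05%, above those of DMD in both directions. The best covered regions leaned the same way, since 14 of the 15 with at least 240 reads had a ratio below 0. Their median was -0.45. Of the 890 X regions of that depth outside DMD, 620 had a ratio below 0, and the median was -0.13. In the 162 regions of 30 to 59 reads DMD and the rest of X were nearer, with medians of -0.28 and -0.24.

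**Figure D3:**
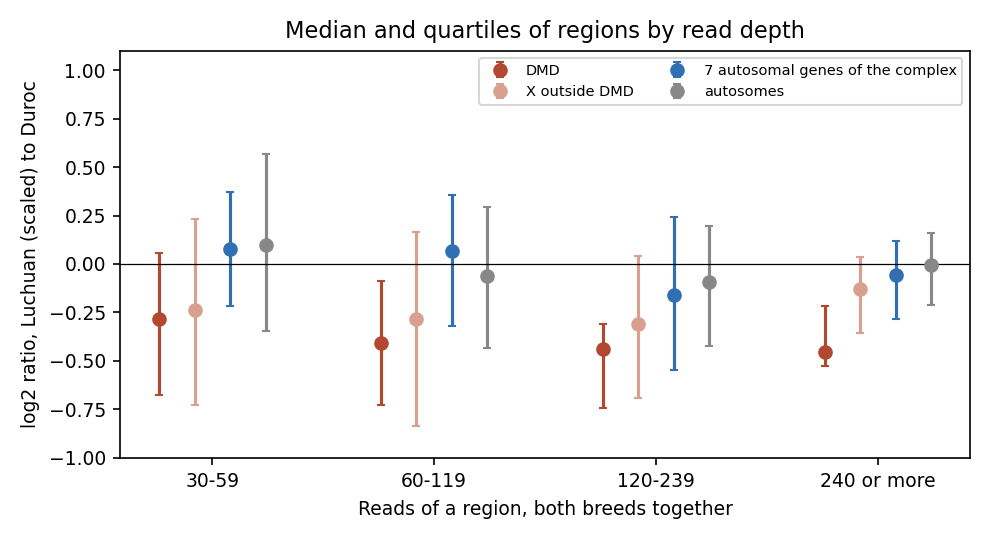
Median log2 ratio of scaled Luchuan to Duroc reads (points) with quartiles (bars) for regions grouped by their reads in both breeds together, in DMD, the rest of X, the 7 autosomal genes and all autosomes. DMD falls from -0.28 in the shallowest group to -0.45 in the deepest, where the rest of X is at -0.13.

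The ratio changed along the gene. The gene and its flanks were divided into 10 segments of 264 kb, counted from the end with the lower coordinate, because the annotation used here has no strand. Segments 3 and 4, from 519 to 1047 kb, were higher in Luchuan, with log2 ratios of 0.26 (0.07 to 0.44) and 0.23 (0.09 to 0.38). Segment 3 held 537 Duroc and 428 Luchuan reads, and segment 4 held 937 and 735. With scaling by clean reads they stood at 0.04 and 0.02, and without scaling at -0.33 and -0.35. Every other segment was below 0, from -0.16 in segment 2 to -0.62 in segment 8. Segment 8, from 1840 to 2104 kb, held 4152 Duroc and 1804 Luchuan reads. Of its 73 regions, 17 were at least 2-fold higher in Duroc, or 23.3%. This share was 13.3% on the rest of X and 5.44% over all regions. Among the stretches of X of the length of DMD with its flanks, the highest share was 42.5%. Those stretches are far longer than a segment, and segments of 264 kb elsewhere on X were not computed. Segment 8 was singled out by its value, so its share has no like comparison. Segments 7 and 8 were also the densest, with 75 and 73 regions against 13 in segment 10. Without segments 3 and 4 the ratio of the gene was -0.43, and without segment 8 it was -0.31.

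**Figure D4:**
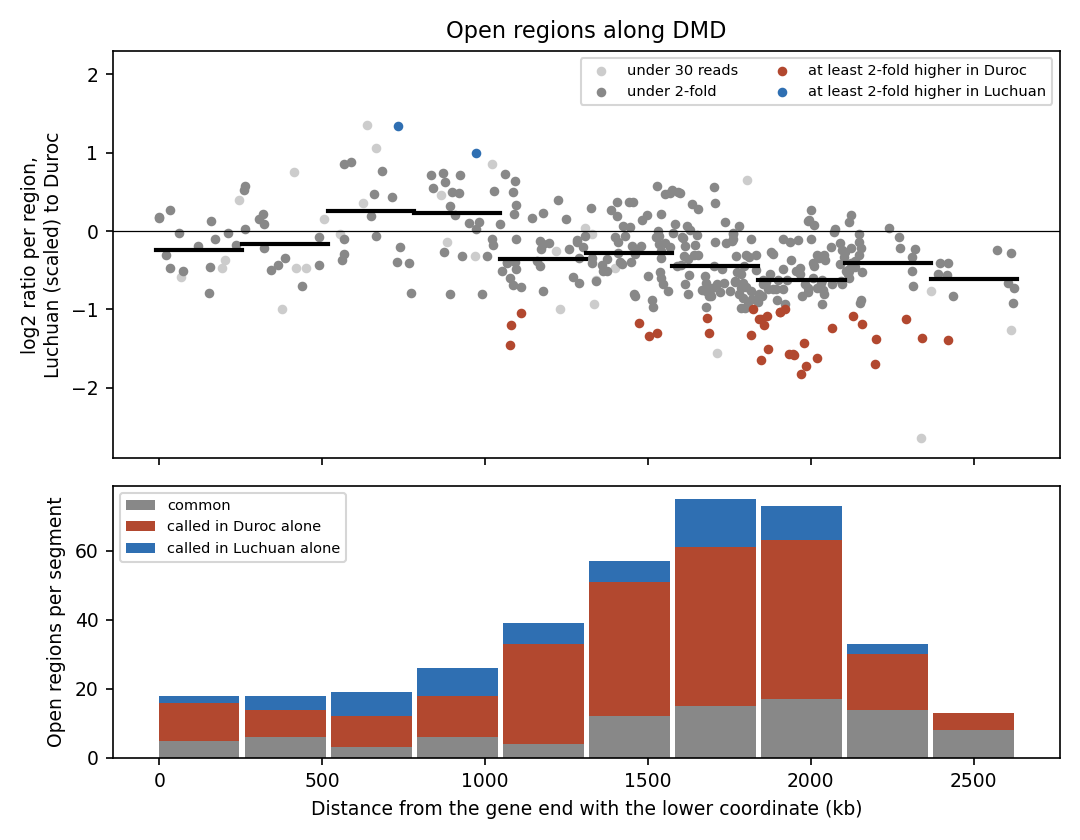
Upper panel: log2 ratio of scaled Luchuan to Duroc reads of each DMD region against the distance from the lower gene end in kb, with the ratio of summed reads of each of 10 segments as black bars. Lower panel: the number of regions per segment by the breed in which the peak was called; segments 3 and 4 lie above 0 and segments 7 and 8 hold 75 and 73 regions.

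The region with the most reads in DMD spans the gene end with the higher coordinate, from 29650336 to 29651483, and was common to both breeds. It had 490 Duroc and 197 Luchuan reads, a log2 ratio of -0.73 (-0.98 to -0.49). At the other gene end no region lay within 1 kb. The nearest, from 27026756 to 27026915, had 28 Duroc and 21 Luchuan reads, too few to tell a difference at this depth.

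Among DMD regions with at least 30 reads, the largest single differences were in weak ones. From 28998975 to 28999127 there were 29 Duroc reads and 5 Luchuan reads, a log2 ratio of -1.82 (-3.68 to -0.57). The region from 29014815 to 29014974 had 27 and 5 reads (-1.72), and that from 29226453 to 29226772 had 51 and 10 (-1.70). The regions higher in Luchuan were from 27761272 to 27761422, with 23 Luchuan and 13 Duroc reads (1.34), and from 28001712 to 28001861, with 18 and 13, which is 2-fold after scaling with a counting interval that reaches below 0. These lie in segments 3 and 4, whose summed reads were higher in Luchuan after scaling, at 0.04 and 0.02 with scaling by clean reads. The peak of the first was called in Duroc alone. A better covered difference, chosen after its values were seen, was at 28105779 to 28106370 in segment 5, with 195 Duroc and 47 Luchuan reads (-1.45).

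UTRN encodes utrophin, which in adult muscle is concentrated at the neuromuscular and myotendinous junctions. It lies on chromosome 1 from 20514264 to 21047927 and had 53 regions with a median log2 ratio of 0.05. Its strongest region lay just outside the end with the higher coordinate, from 21048594 to 21049503, with 841 Duroc and 668 Luchuan reads (0.25, 0.10 to 0.40). The region beside it, over that gene end from 21047742 to 21048532, had 506 and 369 reads (0.13, -0.07 to 0.33). Nearest its lower end, between 20516968 and 20517447, were 166 and 98 reads (-0.17, -0.55 to 0.19). The regions over the higher ends of DMD and UTRN, the related actin-binding members, had ratios of -0.73 and 0.13 with counting intervals that did not overlap. DMD lies on X, where regions within 1 kb of a gene end had a median of -0.09, against 0.05 on autosomes. This shift was not taken out of the 2 ratios.

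Inside UTRN, 3 of 49 regions with 30 reads were at least 2-fold higher in Duroc, or 6.12%, and 2 in Luchuan, or 4.08%, near the 5.44% and 4.57% of all regions. Between 20522557 and 20523245 Duroc had 219 reads and Luchuan 68 (-1.09), between 20749698 and 20750032 they had 95 and 29 (-1.11), and between 20999414 and 20999874 they had 160 and 51 (-1.05). Higher in Luchuan were the region from 20550346 to 20550560, with 50 Luchuan and 33 Duroc reads (1.16), and the one from 20718879 to 20719034, with 20 and 13 (1.15).

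DTNA encodes a cytoplasmic scaffold that binds dystrophin and syntrophins. It lies on chromosome 6 from 118333069 to 118753516 and had 64 regions, all with at least 30 reads, of which 36 were common. Its strongest region, from 118492699 to 118493586, counted 679 reads in Duroc and 494 in Luchuan (0.13, -0.04 to 0.30). The region over the end with the lower coordinate, from 118332955 to 118334243, also lies inside an annotated lncRNA gene and had 452 and 384 reads (0.35, 0.15 to 0.55).

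One DTNA region had reads in Luchuan alone. From 118688236 to 118688524, 355 kb into the gene, the table lists 105 Luchuan reads and 0 Duroc reads over 289 bases. Against a floor of 3 Duroc reads for the region, Luchuan was at least 52.5-fold higher, a log2 ratio of 5.71, and the lower limit of the counting interval, which also covers the error of the 105 reads, was 5.39. Of the 37 regions of the table with 0 Duroc reads it had the most Luchuan reads, and the next had 72. The region before it, from 118687466 to 118688110, was open in both breeds with 274 Duroc and 234 Luchuan reads (0.36, 0.10 to 0.61). Without the Luchuan-only region the ratio of the gene was -0.01 in place of 0.01, so the sign of the sum turned, though both values lie within its counting interval. The spread between boars at this region is unknown, and whether the 0 belongs to the animals or to the counting was not tested.

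**Figure D5:**
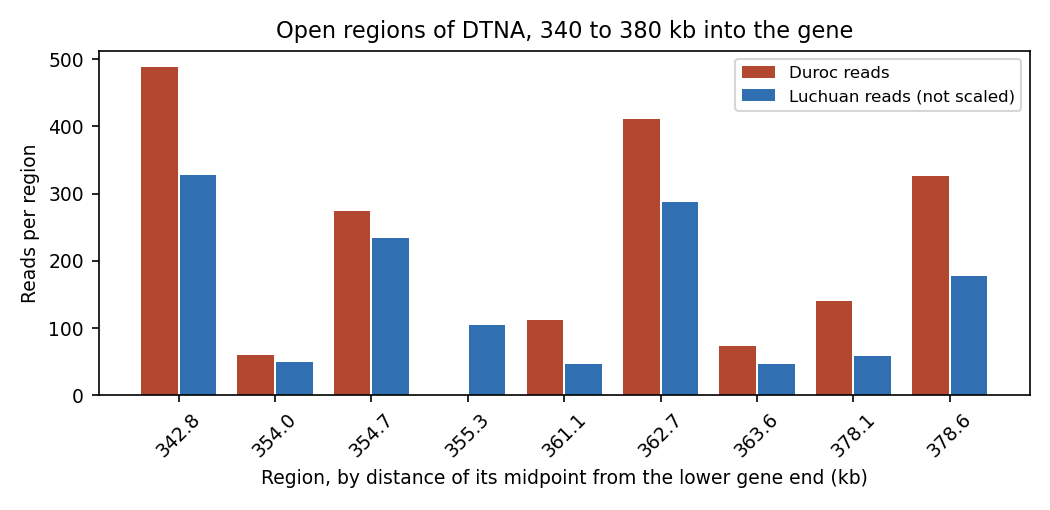
Reads per open region (bars, not scaled) in Duroc and Luchuan for the DTNA regions between 340 and 380 kb from the lower gene end, in order of position. The region at 355.3 kb has 105 Luchuan reads and no Duroc read, while the one at 354.7 kb has 274 Duroc and 234 Luchuan reads.

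Near the end of DTNA with the higher coordinate, between 118754044 and 118754207, were only 32 Duroc and 17 Luchuan reads (-0.32, -1.27 to 0.56). The other DTNA regions past 2-fold were weaker. From 118651887 to 118652175 there were 81 Duroc and 21 Luchuan reads (-1.34), and from 118526498 to 118526744 there were 53 and 15 (-1.20). Between 118608518 and 118608691 Luchuan had 29 reads and Duroc 17 (1.31), although its peak was called in Duroc alone.

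DAG1 encodes both dystroglycan subunits, the laminin receptor and its membrane partner. It lies on chromosome 13 from 32028019 to 32092450. With 25 regions it was the densest of the 8 genes, at 29.6 regions per 100 kb against a median of 9.85 over protein-coding genes. The strongest open chromatin was near the end with the lower coordinate. Between 32028943 and 32029563 Duroc had 741 reads and Luchuan 517 (0.07, -0.10 to 0.23), and its neighbour from 32028299 to 32028904 had 581 and 403 (0.06, -0.13 to 0.24). The lowest ratios, looked up after the values were seen, were inside the gene, -0.78 (-1.36 to -0.24) from 32040550 to 32040781 with 101 and 39 reads, and -0.58 (-0.87 to -0.31) from 32049507 to 32050031 with 351 and 156. At its other end the nearest region, from 32094663 to 32095344 and outside the gene, had 559 and 345 reads (-0.11).

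The sarcoglycans SGCA, SGCB and SGCD span the membrane beside dystroglycan. Together their 103 regions held 11673 Duroc and 7286 Luchuan reads, a log2 ratio of -0.10 (-0.14 to -0.05). Of the 97 with 30 reads, 4 were past 2-fold in Duroc, or 4.12%, and 5 in Luchuan, or 5.15%. These shares are near the 5.44% and 4.57% of all regions. SGCA, on chromosome 12 from 26356691 to 26368561, had 5 regions with ratios between -0.15 and 0.14. The strongest, over its lower end from 26356362 to 26357274, had 829 and 499 reads (-0.15, -0.31 to 0.01) and 47.3% of the reads of the gene. Nearest its higher end, between 26364656 and 26365087, were 266 and 177 reads with equal levels after scaling. SGCB, on chromosome 8 from 39130371 to 39148756, had a single region, from 39148106 to 39149209 over its higher end, with 885 and 556 reads (-0.09, -0.24 to 0.07). For SGCA and SGCB a difference beyond counting error was not detectable with the median scaling. Scaling by clean reads gave -0.31 and -0.30, with counting intervals that then lie below 0.

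SGCD, on chromosome 16 from 66447982 to 67481709, was the sarcoglycan with the most regions, 97, and 7 of them lay inside annotated lncRNAs. Its strongest region lay deep in the gene, from 66887834 to 66888740, with 819 Duroc and 515 Luchuan reads (-0.08, -0.25 to 0.08). The region over its higher end, from 67480830 to 67481855, had 263 and 121 reads (-0.53, -0.86 to -0.22), and the one near its lower end, from 66446955 to 66447231, had 46 and 25 (-0.29, -1.06 to 0.44). Both end regions had fewer scaled reads in Luchuan, but the counting interval of the weaker one includes 0.

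Of 91 SGCD regions with 30 reads, 4 were past 2-fold in Duroc, or 4.40%, and 5 in Luchuan, or 5.49%, near the 5.44% and 4.57% of all regions. Among them the largest falls in Luchuan were from 67376835 to 67377103 with 51 Duroc and 9 Luchuan reads (-1.84), from 66766540 to 66767050 with 251 and 60 (-1.47, -1.91 to -1.07), and from 66916245 to 66916426 with 40 and 12 (-1.11). The largest rises among those with 30 reads were from 66781431 to 66781630 with 51 Luchuan and 27 Duroc reads (1.47), from 66453231 to 66453386 with 28 and 17 (1.26), and from 66669305 to 66669515 with 23 and 14 (1.24). A stronger region beside the first of these rises, from 66780915 to 66781424 and named after its values were seen, had 125 Luchuan and 83 Duroc reads (1.17, 0.76 to 1.59). This pair lay 333 and 334 kb from the lower gene end, and the fall with 251 Duroc reads lay close by at 319 kb.

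SSPN encodes sarcospan, a small protein with several membrane spans that binds the sarcoglycans. It lies on chromosome 5 from 47566266 to 47609330, and 10 of its 11 regions had a ratio above 0. The strongest, over its higher end from 47608609 to 47609643, had 906 Duroc and 701 Luchuan reads (0.21, 0.07 to 0.36). Nearest its lower end, between 47561443 and 47561651, were 69 and 49 reads (0.09, -0.47 to 0.64). The region from 47583807 to 47584081 was past 2-fold with 52 Luchuan and 37 Duroc reads (1.06, 0.44 to 1.72), and its neighbour from 47584232 to 47584625, named after its values were seen, had 69 and 65 (0.66, 0.16 to 1.18). The exception lay outside the gene, from 47557668 to 47558372 beyond its lower end, with 445 and 225 reads (-0.40, -0.64 to -0.16). The gene body alone had a ratio of 0.27. With scaling by clean reads the strongest region, like the gene, turns just below 0.

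The gene ends can be set side by side. Of the 16 ends of the 8 genes, 10 had a region within 1 kb and 7 had one directly over them. Only the nearest region of each of these 10 ends was taken, and none was past 2-fold. Their log2 ratios ran from -0.73 at DMD to 0.35 at DTNA. Another region lay within 1 kb of that DMD end, from 29649658 to 29650157, and is named after its values were seen. It had 214 Duroc and 75 Luchuan reads (-0.92, -1.33 to -0.54). The background counted every region of the table within 1 kb of a protein-coding gene end, not the nearest alone. Over these 19239 regions the median was 0.04, with quartiles of -0.15 and 0.21. Over the 583 of them on X it was -0.09, with quartiles of -0.35 and 0.09. The region over the DMD end lay below the lower quartile of X.

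A list of 45 other genes of the complex and its ligands held 41 that matched the annotation and 40 with a region. Their 609 regions with 30 reads included 23 higher in Duroc and 23 higher in Luchuan, 3.78% each, under the 5.44% and 4.57% of all regions. The median ratio of summed reads per gene was -0.00085. The laminin and matrix ligands had 8 and 7 such regions of 179, the scaffold proteins 6 and 5 of 220, the glycosylation enzymes of dystroglycan 4 and 3 of 83, the syntrophins 4 and 6 of 70 and the other sarcoglycans 1 and 2 of 34. The integrins ITGA7 and ITGB1 had none of 23.

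Among the lowest summed ratios on that list were DPM2, a subunit of dolichol-phosphate mannose synthase, at -0.33 (-0.50 to -0.16), and PLEC (plectin, a cytoskeletal linker) at -0.25 (-0.31 to -0.18). The highest were SNTG1, gamma 1 syntrophin, at 1.05 (0.69 to 1.40), SGCZ, zeta sarcoglycan, at 0.39 (0.17 to 0.60) and LAMB1, laminin beta 1, at 0.37 (0.21 to 0.52). SNTG1 rested on only 117 Duroc and 161 Luchuan reads and SGCZ on 390 and 340, the fewest reads per kb on the list. LAMA2, the laminin chain that dystroglycan binds in muscle, had 6493 and 3795 reads (-0.19, -0.25 to -0.13) and 7 of its 73 regions with 30 reads were past 2-fold in Duroc and 1 in Luchuan, where all regions had 5.44% and 4.57%. DRP2, a dystrophin-related gene on X, had no region.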

How the data were processed

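ATAC-seq was performed on longissimus dorsi muscle of 3 Luchuan and 3 Duroc boars. The 6 RNA-seq samples were not analysed here. Per the submitters' notes and methods, reads were trimmed by Trimmomatic 0.36 and mapped to Sscrofa11.1 by Bowtie2, and MACS2 gave the peaks. How duplicates were handled and how boars were combined is not given in the sources used here. The authors deposited raw read counts per peak interval, in 1 column per breed, taken here as pooled over boars. Their columns of log2 fold change, average signal and P hold their own comparison and were not used.

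Where intervals common to both breeds overlapped or touched, the longest was kept. Starts were raised by 1, which makes the shortest interval 150 bases. Luchuan counts were multiplied by the median Duroc to Luchuan ratio, 1.5. Ratios of single regions had 1 added to each scaled count, and a call needed 2-fold and 30 reads. Genes came from a RefSeq table of Sscrofa11.1, built from a Duroc animal, with 19550 protein-coding genes and without strand, exons or UTRs. All 8 members matched. Genome sequence was not used here, so no motif was searched.

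The 8 genes, the other gene list and the markers were chosen with earlier results of these data known. The text names, per member, the region with the most reads, those nearest the gene ends and those past 2-fold (the 3 largest per direction above 6 of them), and up to 3 other genes per direction, of which 1 is not reported here. Exceptions are marked, and LAMA2 and DRP2 were named for their role. With 1 count per breed no test between breeds was run. The code for scaling and calls was checked on simulated counts. Tables were handled in pandas 2.3.3 under Python 3.11.15 with NumPy 2.4.6, intervals came from SciPy 1.17.1 and plots from Matplotlib 3.10.9. Alternatives covered the scaling, flanks, counting unit, minimum of reads, fold and pseudocount.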

Additional observations from a re-analysis of the deposited data

How the results depend on the processing

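No paired analysis was possible because the count columns carry no replicate, and leaving out a boar could not be run for the same reason. Of the choices tried, scaling moved the values most. Scaling by the clean reads of the study, a factor of 1.29, put the median of all regions at -0.21 and gave log2 ratios of -0.59 for DMD, -0.24 for UTRN, -0.31 for SGCA, -0.30 for SGCB, -0.31 for SGCD, -0.31 for DAG1, -0.20 for DTNA and -0.048 for SSPN. The signs of SSPN and of DTNA, whose interval includes 0, turned. Without scaling the median was -0.57 and these ratios were -0.95, -0.61, -0.68, -0.67, -0.68, -0.67, -0.57 and -0.41. Relative to those medians the order of the genes is the same by construction. Scaling within the chromosome class moved DMD to -0.15. Counting the gene body alone moved UTRN to -0.086 and SSPN to 0.27, and a flank of 2 kb moved SSPN to 0.27. Chosen after seeing the data, leaving out segments 3 and 4 of DMD gave -0.43 and leaving out segment 8 gave -0.31. SGCB has no value without its only region.

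Member regions past 2-fold, 43 in Duroc and 12 in Luchuan, became 79 and 6 with clean reads, 200 and 1 without scaling, 10 and 2 with a minimum of 100 reads and 142 and 33 at 1.5-fold. Scaling within the chromosome class gave 28 in Duroc. For the other genes, 23 and 23 became 10 and 8 with 100 reads and 64 and 59 at 1.5-fold. The other 81 values stayed within the counting interval, or within 1.5 times the count. One count per breed cannot show the spread between boars.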
